A study of Rattus norvegicus with 24 samples.

Results

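The histone genes of the rat lung were described across 24 libraries from lungs of control rats and of rats given whole-cigarette smoke condensate (WCSC), the matter condensed out of cigarette smoke. The set was chosen by symbol: every gene whose name begins with Hist1h to Hist4h, H1f, H2af or H3f3. This gave 33 of the 16881 gene symbols in the files. The set was picked for description because its linker histone Hist1h1d was higher at 20 mg/mL and 6 days. That contrast is therefore given as a description below, and no test of a histone gene is read from it.

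There were 8 groups of 3 libraries. Each of 2 exposure times, 6 and 12 days, had a control and WCSC doses of 5, 10 and 20 mg/mL. All rats were labelled wild type (WT), with no strain, age, sex or route of dosing in the labels used here. Nothing in the labels tells if replicates came from separate animals. The p-values therefore measure only the spread between these samples, which may be technical. Total counts per library ranged from 4795667 to 11109713, with a median of 6840815. Lung markers were present in every library, with summed levels of 6826 to 28010 counts per 1e+06 counts (CPM) for alveolar type II genes and 2210 to 8306 CPM for alveolar type I genes. The lowest value of each list was at 20 mg/mL and 12 days. Heart muscle genes summed to 29.7 to 2855 CPM in that group, and to at most 192.4 CPM in any other group. The tissue pieces of that group therefore differed in make-up. The part of this in the 12-day contrasts was not tested beyond leaving each library out. Between replicates, log2 CPM correlated with r of 0.912 to 0.971. In whole tissue, fewer cells of a type and less RNA per cell cannot be told apart.

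Histones package DNA. Pairs of H2A, H2B, H3 and H4 form the nucleosome core, and linker histones of the H1 family bind where DNA enters and leaves it. Most core and linker histone genes sit in clusters and are transcribed in S phase, when new DNA needs new nucleosomes. Their mRNAs mostly end in a stem-loop in place of a poly(A) tail. Most replacement variants and the linker histone H1f0 can be made outside S phase from ordinary polyadenylated mRNAs. The libraries were made with a Lexogen QuantSeq kit, a type of kit that primes at poly(A), so the replication-dependent histones were measured through whatever part of their RNA was captured.

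The promoters of the genes behind 3 symbols are shown, because Hist1h1d and Hist1h2an varied together in the libraries and Hist1h1b is the other cluster linker histone that could be tested. The symbol Hist1h1d is listed for 2 genes in the RefSeq table of build GRCr8, H1f4 and H4f3. Reads in the files were counted on build rn6, so which gene the line counts cannot be told apart here, and both promoters are given. Each is the 150 bases before the gene's start, from RefSeq, GRCr8, 5′ to 3′ on the gene's strand. Capitals mark 4 motifs, each searched on both strands. The H1 box, an element of linker histone promoters, was searched as AAACACA. The CCAAT box was searched by the letters of its name. The TATA box was searched as TATAAA. The octamer, known from H2B promoters, was searched as ATTTGCAT.
Hist1h1d as H1f4, chr17:41914275-41914424, plus strand: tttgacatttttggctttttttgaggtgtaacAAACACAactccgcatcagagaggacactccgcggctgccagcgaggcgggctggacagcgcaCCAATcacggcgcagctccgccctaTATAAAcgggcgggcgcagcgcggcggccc
Hist1h1d as H4f3, chr17:41980342-41980491, minus strand: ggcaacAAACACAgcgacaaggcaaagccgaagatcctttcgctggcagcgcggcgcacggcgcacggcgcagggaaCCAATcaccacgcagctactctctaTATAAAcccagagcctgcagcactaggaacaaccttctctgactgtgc
Hist1h1b as H1f5, chr17:47421725-47421874, plus strand: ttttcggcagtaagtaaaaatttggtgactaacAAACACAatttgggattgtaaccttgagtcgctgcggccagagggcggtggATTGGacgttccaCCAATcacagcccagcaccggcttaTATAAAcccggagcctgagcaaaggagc
Hist1h2an, chr17:41962541-41962690, plus strand: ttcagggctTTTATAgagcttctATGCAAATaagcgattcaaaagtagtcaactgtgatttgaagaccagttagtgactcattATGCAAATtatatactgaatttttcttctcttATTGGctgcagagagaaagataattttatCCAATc

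The 3 promoters shown for linker histone symbols held the H1 box, a CCAAT box and the TATA box in that order towards the start. In H1f4 they began 118, 55 and 30 bases before the start. In H4f3 they began 144, 73 and 48 bases before it. The Hist1h2an window held no H1 box but had the octamer at 127 and 67 bases before the start. Of all 33469 RefSeq promoter windows of this length, 3.29% held the H1 box, 23.5% a CCAAT box, 8% the TATA box and 0.899% the octamer. Of the 27 histone symbols with 1 matching gene and a promoter, 3 held the H1 box, 23 a CCAAT box, 9 the TATA box and 8 the octamer. These matches describe letters in a window and not bound sites. On chromosome 17 of GRCr8, the Hist1h2an promoter lies between those of H1f4 and H4f3.

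Of the 33 histone genes, 16 had enough reads to be tested, and these 16 held 282820 reads, 99.8% of the reads counted on the set. They were 3 of the 5 linker histones, 2 of 7 H2A genes, 3 of 8 H2B genes, 1 of 3 H4 genes and 7 of 8 replacement variants. Neither H3 gene of the clusters was tested. The 17 genes below the filter had 575 reads in total over all 24 libraries, from 0 for the variant H2afb3 to 84 for Hist1h2bk. Among them were the linker histones Hist1h1a with 23 reads and Hist1h1t, a testis linker histone, with 40 reads. The male germ cell markers Prm1, Prm2, Tnp1 and Tnp2 summed to at most 0.139 CPM in any library. Summed over all members, histone genes took 1281 to 2179 CPM per library, with a median of 1662 CPM. Copies of the clustered histones are near-identical in sequence, and the handling of reads that match several copies is not given in the sources used here, so the split of reads between such symbols is uncertain. Besides Hist1h1d, the symbols Hist1h2bh, Hist1h2bl, Hist1h4b and H2afx are also each listed for 2 genes in the RefSeq table.

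Hist1h1d, a linker histone of the cluster, averaged 163.5 ± 26.74 CPM at 20 mg/mL and 6 days, against 65.46 ± 1.13 CPM in 6-day control lungs (SD, n = 3 each). At 6 days its level was 64.15, 66.1 and 66.12 CPM in control lungs, 65.49, 123.2 and 70.4 CPM at 5 mg/mL, 89.29, 103.2 and 95.96 CPM at 10 mg/mL, and 190.7, 162.5 and 137.3 CPM at 20 mg/mL. The libraries at 20 mg/mL lay above every other 6-day library, and those at 10 mg/mL also lay above every control. At 5 mg/mL, replicate 2 stood above the other libraries of its group.

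The log2 fold change of Hist1h1d over control at 6 days was 1.32 (SE 0.291) at 20 mg/mL, a fold of 2.5 and the contrast the set was selected on. The 10 mg/mL dose gave 0.55 (SE 0.288), and the 5 mg/mL dose gave 0.40 (SE 0.287). These 3 contrasts share the same control libraries, which differed by under 2 CPM in this gene. At 20 mg/mL the value lay between 1.20 and 1.43 in all 16 alternative fits. Those fits reuse the libraries the gene was picked on, so this range is not free of that selection. At 5 mg/mL it was 0.06 without replicate 2 of that dose. The comparison of 10 with 5 mg/mL shares no library with the selecting contrast, and there the log2 fold change was 0.15 (95% interval -0.44 to 0.75), with an adjusted p of 1 by edgeR's quasi-likelihood test. Its sign turned, to -0.01, without replicate 1 of 5 mg/mL.

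**Figure D1:**
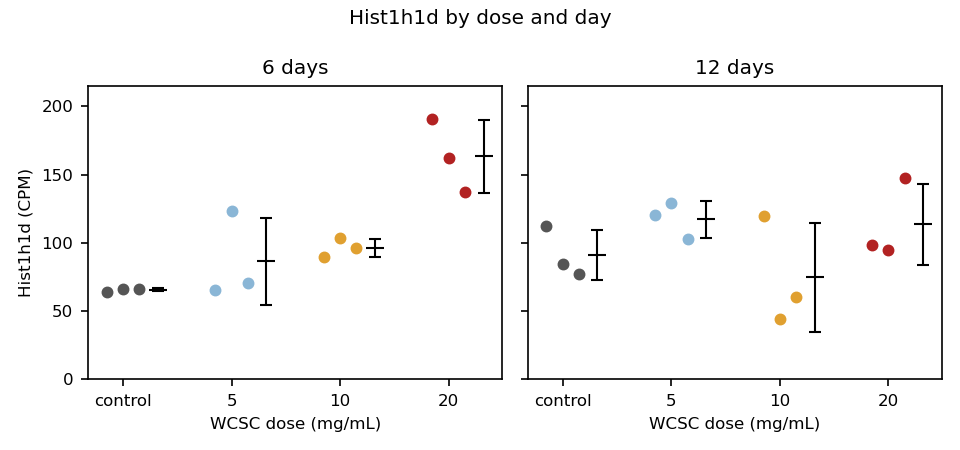
Hist1h1d level in CPM (vertical axis) by WCSC dose in mg/mL (horizontal axis) at 6 and 12 days; points are libraries and the bar beside them is the mean ± SD of 3. At 6 days the 20 mg/mL libraries sit between 137.3 and 190.7 CPM, above all others of that day, while at 12 days the 4 groups overlap.

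At 12 days Hist1h1d showed no such order by dose. It was at 112.1, 84.42 and 76.85 CPM in control lungs, 120.6, 128.9 and 102.5 CPM at 5 mg/mL, 119.8, 43.95 and 60.45 CPM at 10 mg/mL, and 98.14, 94.42 and 147.7 CPM at 20 mg/mL. Every exposed group overlapped the controls. The log2 fold change was 0.32 at 20 mg/mL (95% interval -0.28 to 0.91, adjusted p = 0.998, edgeR). It was -0.28 at 10 mg/mL (95% interval -0.88 to 0.31, adjusted p = 1) and 0.37 at 5 mg/mL (95% interval -0.23 to 0.96, adjusted p = 1, edgeR). Without replicate 3 of 20 mg/mL the value at that dose was 0.08. The value at 10 mg/mL was -0.80 without replicate 1 and -0.01 without replicate 2 of that dose. The slope over dose was 0.01 log2 units per mg/mL (SE 0.0137, adjusted p = 0.991, edgeR), and it was -0.0038 without replicate 3 of 20 mg/mL. Intervals this wide leave fold changes in both directions within reach.

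The effect of 20 mg/mL on Hist1h1d at 12 days minus that at 6 days was -1.0 on the log2 scale (95% interval -1.84 to -0.16), an estimate given without a test because the 6-day arm selected the gene. The controls averaged 91.13 ± 18.56 CPM at 12 days and 65.46 ± 1.13 CPM at 6 days (SD, n = 3 each). They did not overlap, as was so with a higher 12-day level for 4.71% of all genes, and the log2 fold change of 0.48 had a 95% interval that includes 0 (-0.12 to 1.07). The 6-day controls belong to the selecting contrast, so no test is read here. In the order of group means, 20 mg/mL at 6 days came first at 163.5 CPM and did not overlap the next group, 5 mg/mL at 12 days, at 117.3 CPM. It did overlap the third group, 20 mg/mL at 12 days, whose highest library had 147.7 CPM against a lowest of 137.3 CPM at 6 days. From the second group down to the 6-day controls, each group overlapped its neighbour in the order.

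The other cluster linker histone that could be tested, Hist1h1b, was counted at a low level, with 420 reads over the 24 libraries. At 6 days it had 1.022, 2.85 and 2.397 CPM in control lungs, 0.09834, 1.83 and 1.96 CPM at 5 mg/mL, 0.839, 1.37 and 2.388 CPM at 10 mg/mL, and 4.473, 6.766 and 5.368 CPM at 20 mg/mL. The 20 mg/mL libraries were the 3 highest of that day, while the lower doses lay within or below the controls. The log2 fold change at 20 mg/mL and 6 days was 1.40 (SE 0.726), read here as a description. It was 0.89 without the 8 libraries in which the fewest genes were detected, which are described with the measure of library complexity.

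At 12 days Hist1h1b had 3.238, 0.7231 and 3.891 CPM in control lungs and 0.5948, 1.535 and 2.2 CPM at 20 mg/mL. The groups overlapped, and the log2 fold change was -0.83 (95% interval -2.39 to 0.73, adjusted p = 0.998, edgeR), with -0.41 without control replicate 3 and -1.29 without replicate 3 of 20 mg/mL. The effect of 20 mg/mL at 12 days minus that at 6 days was -2.23 (95% interval -4.40 to -0.07). It is given without a test too, because its 6-day arm is the contrast the set was selected on.

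H1f0, the replication-independent linker histone of resting and differentiated cells, averaged 156.2 ± 38.6 CPM at 20 mg/mL and 158.1 ± 16.35 CPM in controls at 6 days, and 183.2 ± 14.3 CPM at 20 mg/mL and 175 ± 58.93 CPM in controls at 12 days (SD, n = 3 each). Its group means stayed between 156.2 and 185.5 CPM over all 8 groups. The log2 fold change at 20 mg/mL and 12 days was 0.07 (95% interval -0.39 to 0.52, adjusted p = 0.998, edgeR), and -0.25 without the 8 libraries of fewest genes. The difference between linker histone genes was not tested.

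Among the core histones, Hist1h2an, a replication-dependent H2A gene, followed Hist1h1d. At 6 days it had 5.24, 9.909 and 5.498 CPM in control lungs, 4.032, 20.52 and 8.02 CPM at 5 mg/mL, 7.911, 6.351 and 7.446 CPM at 10 mg/mL, and 17.49, 13.05 and 12.65 CPM at 20 mg/mL. All 3 libraries at 20 mg/mL exceeded all 3 controls, and the highest library of the day was replicate 2 of 5 mg/mL. At 12 days it had 13.96, 12.11 and 8.755 CPM in control lungs, 10.47, 14.94 and 9.658 CPM at 5 mg/mL, 12.5, 2.674 and 4.094 CPM at 10 mg/mL, and 12.89, 7.293 and 13.81 CPM at 20 mg/mL. Here every dose overlapped the controls, and replicates 2 and 3 of 10 mg/mL were the 2 lowest. The log2 fold change was 1.06 (SE 0.508) at 20 mg/mL and 6 days, a description, and -0.84 (SE 0.512, adjusted p = 1, edgeR) at 10 mg/mL and 12 days. Replicates of 10 mg/mL moved that last value, to -1.76 without replicate 1 and to -0.48 without replicate 2.

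Over all 24 libraries, no tested gene had a log2 CPM more like that of Hist1h1d than Hist1h2an, with Pearson's r = 0.839 and Spearman's rho = 0.837. Without the 2 libraries farthest from the median of Hist1h1d, replicate 2 of 10 mg/mL at 12 days and replicate 1 of 20 mg/mL at 6 days, r was 0.77. Within groups, the deviations from the group means correlated at 0.859, so the 2 genes moved together among replicates of the same dose and day. Next in likeness came 4 genes outside the set: Ywhae at 0.768, Otud6b at 0.759, Ncl at 0.746 and Ccdc50 at 0.742. The next histone genes, Hist1h1b at 0.484 and Hist1h4b at 0.27, ranked 326 and 1635 among all genes tested. These coefficients were picked as the highest of all genes, share the same libraries and depth, and are given with no p. The counting's strand setting is not given in the sources used here, so reads shared between neighbouring genes cannot be told apart.

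**Figure D2:**
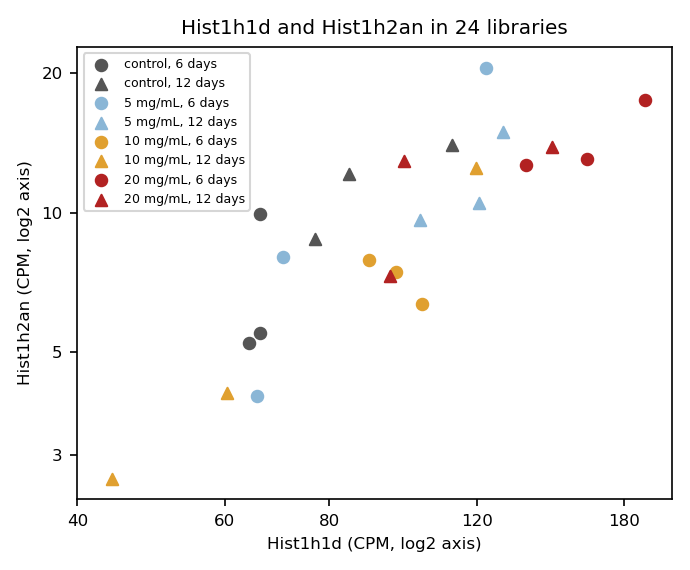
Level of Hist1h2an against Hist1h1d, both in CPM on log2 axes; each point is 1 of 24 libraries, coloured by dose, with circles for 6 days and triangles for 12 days. The libraries line up (r = 0.839), with replicate 2 of 10 mg/mL at 12 days lowest in both genes, at 43.95 CPM of Hist1h1d and 2.674 CPM of Hist1h2an.

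At the lowest dose, other core histones stood out. Hist1h2bh, an H2B gene, had 86.63, 148.7 and 62.91 CPM at 5 mg/mL and 6 days, against 59.3, 51.99 and 34.82 CPM in control lungs. The groups did not overlap, and the log2 fold change was 1.03 (95% interval 0.22 to 1.84, unadjusted p = 0.0155, adjusted p = 0.896, edgeR). Hist1h4b, an H4 gene, had 76.11, 163.2 and 50.97 CPM at 5 mg/mL, against 88.18, 41.4 and 41.87 CPM in control lungs (log2 fold change 0.76, SE 0.352, adjusted p = 0.896). Its groups overlapped, through control replicate 1. Hist3h2a, an H2A gene outside the main cluster, had 64.9, 69.39 and 34.22 CPM at 5 mg/mL, against 45.49, 39.5 and 26.08 CPM in control lungs (log2 fold change 0.60, SE 0.288, adjusted p = 0.896, edgeR). These 3 were the histone genes with an unadjusted p under 0.05 at this dose, 3 of 16, where 4.69% of all genes had one. None passed after adjustment. At 10 mg/mL and 6 days, the log2 fold change of Hist3h2a was 0.46 (SE 0.288, adjusted p = 0.989, edgeR). It was -0.20 without the 8 libraries of fewest detected genes, which leaves only replicate 3 of 10 mg/mL.

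These values at 5 mg/mL leaned on few libraries. Without replicate 2 of 5 mg/mL, the log2 fold change was 0.62 for Hist1h2bh and 0.16 for Hist1h4b. Without the 8 libraries of fewest detected genes, which leaves only replicate 3 of that dose, assumed to vary like the other groups, it was 0.52 for Hist1h2bh, 0.28 for Hist1h4b and 0.05 for Hist3h2a. Hist1h2bh was also lower at 10 mg/mL than at 5 mg/mL and 6 days, at 60.77, 43.34 and 51.98 CPM against 86.63, 148.7 and 62.91 CPM (log2 fold change -0.93, unadjusted p = 0.0259, adjusted p = 1, edgeR). It was the 1 histone gene of 16 with an unadjusted p under 0.05 there, against 2.4% of all genes.

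Hist1h2bo, an H2B gene with at most 2.698 CPM in any library, had 2.698, 2.34 and 1.228 CPM at 10 mg/mL and 12 days, against 0.2024, 1.808 and 0.6949 CPM in control lungs. At 20 mg/mL and 12 days it had 0.3965, 0.3838 and 0.489 CPM. Both doses overlapped the controls, with log2 fold changes of 1.19 (SE 0.831, adjusted p = 1) and -1.05 (SE 0.908, adjusted p = 0.998, edgeR). Without control replicate 2, these values were 2.12 and -0.12. The slope over dose at 12 days was -0.04 log2 units per mg/mL (SE 0.0439, adjusted p = 0.991, edgeR).

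**Figure D3:**
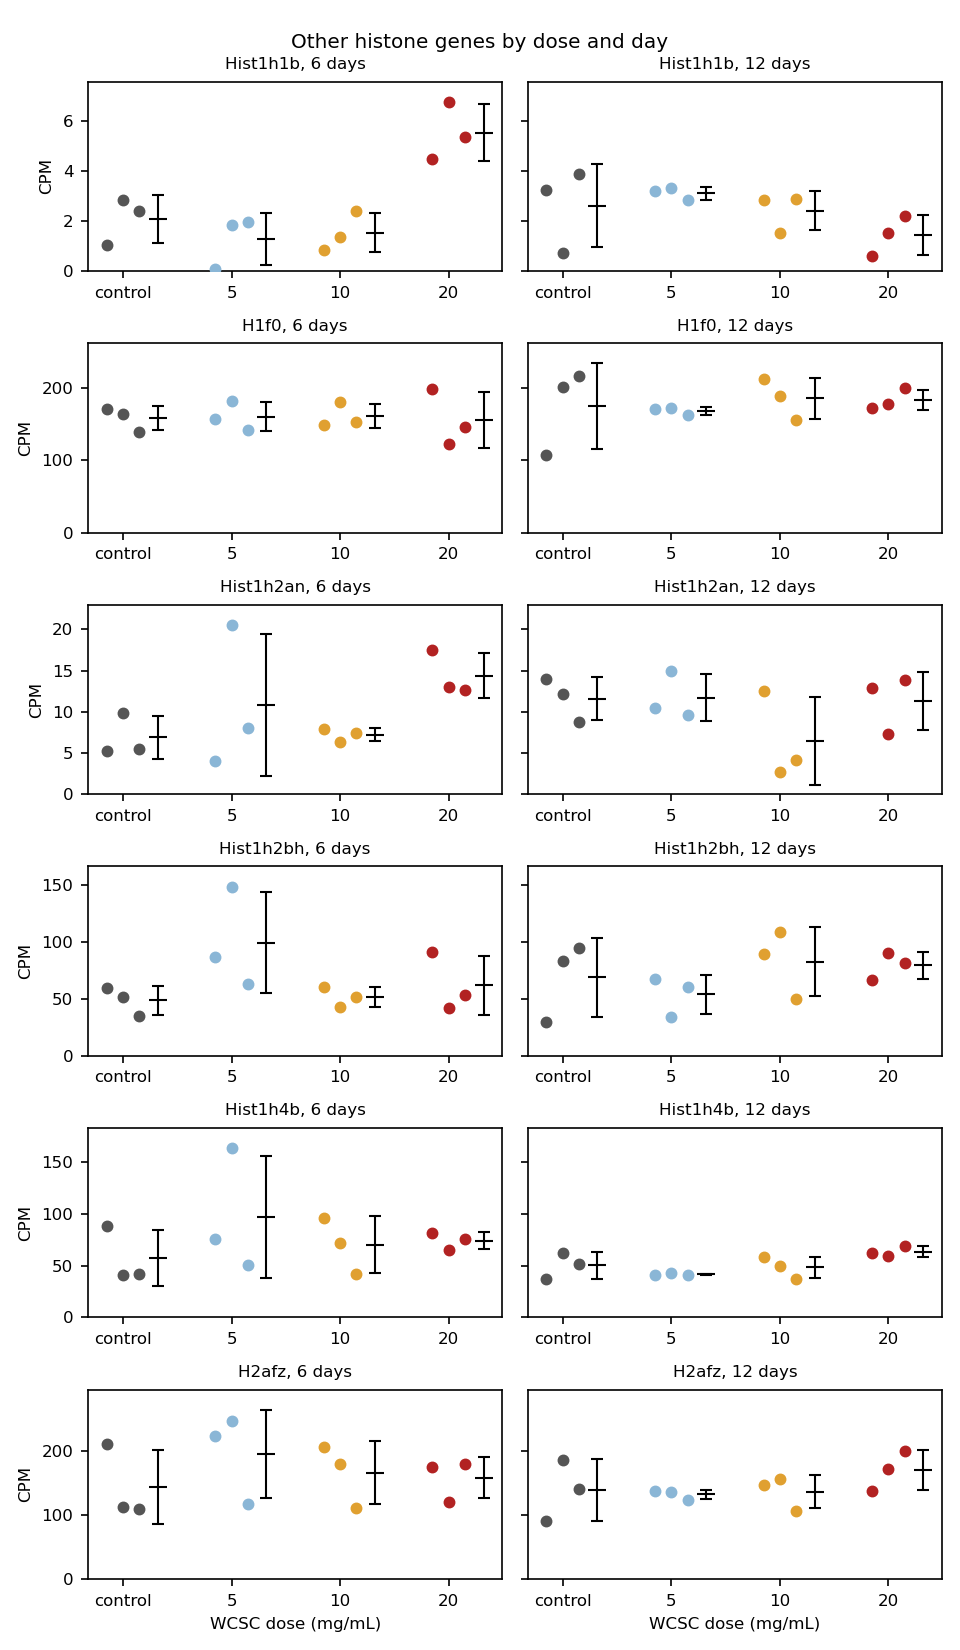
Level in CPM (vertical axes) of 6 histone genes by WCSC dose in mg/mL at 6 days (left) and 12 days (right); points are libraries, bars the mean ± SD of 3. Hist1h1b and Hist1h2an are above their controls in all 3 libraries at 20 mg/mL and 6 days, Hist1h2bh is above at 5 mg/mL and 6 days, and H1f0 keeps group means of 156.2 to 185.5 CPM.

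The replacement variants gave no called difference. H3f3b, which encodes the H3 variant laid down outside S phase, ranged from 518.9 to 998.3 CPM, and its log2 fold change at 20 mg/mL and 12 days was 0.25 (95% interval -0.18 to 0.69, adjusted p = 0.998, edgeR), and 0.0035 without the 8 libraries of fewest genes. H2afz, which encodes the H2A.Z variant found at promoters, ranged from 90.86 to 245.7 CPM, with 138, 171.4 and 200.2 CPM at 20 mg/mL and 12 days against 90.86, 186.2 and 139.7 CPM in control lungs. H2afx encodes the variant that is phosphorylated around DNA breaks. It had 12.49, 6.909 and 5.379 CPM at 20 mg/mL and 12 days, against 2.833, 5.784 and 6.949 CPM in control lungs (log2 fold change 0.65, 95% interval -0.34 to 1.65, adjusted p = 0.998, edgeR). A single library, replicate 1, lay above the controls, and without it the value was 0.23.

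The macroH2A genes H2afy and H2afy2, whose products carry a large extra domain and mark silent chromatin, had the lowest log2 fold changes among the variants at 6 days. H2afy had 159.9, 187.5 and 181.8 CPM at 10 mg/mL, against 192.5, 218.1 and 193.7 CPM in control lungs, with no overlap (log2 fold change -0.19, SE 0.179, adjusted p = 0.989, edgeR). H2afy2 had 12.61, 12.69 and 15.08 CPM at 20 mg/mL, against 18.02, 18.32 and 14.66 CPM in control lungs. Without the 8 libraries with the fewest genes, the sign of H2afy2 turned at 10 mg/mL, to 0.43 against -0.36 with all libraries, and at 5 mg/mL, to 0.26 against -0.36. That fit leaves only replicate 3 at each of these doses, with 22.34 CPM at 10 mg/mL and 19.96 CPM at 5 mg/mL. H2afv, another H2A.Z gene, ranged from 25.43 to 70.18 CPM. Its controls had 28.94, 38.86 and 25.43 CPM at 12 days, against 49.07, 44.25 and 39.33 CPM at 6 days (log2 fold change -0.51, adjusted p = 1, edgeR). These did not overlap, and 4.21% of all genes were lower at 12 days without overlap. H2afj, an H2A variant, ranged from 48.03 to 96.45 CPM.

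No gene of the 11426 tested, histone or other, passed an adjusted p of 0.05 in any of the 10 contrasts by edgeR's quasi-likelihood test (0% called in each). In the 20 mg/mL contrast at 6 days, and in the difference that holds it, nothing is read from this. Over the other 8 contrasts, an unadjusted p under 0.05 was found for the 3 histone genes at 5 mg/mL and 6 days, for Hist1h2bh between 10 and 5 mg/mL, and for 0 elsewhere. DESeq2 and limma voom called 0 histone genes in those 8 contrasts. A simulation of the 12-day 20 mg/mL contrast recovered 32.3% of genes changed 2-fold and 91.1% of genes changed 4-fold. Each simulated gene had the spread typical of its count level and none of its own, so these shares need not hold for a given histone gene. The simulation changed only genes with a mean above 5 CPM, held no differences in library complexity and gave 3 false calls. Hist1h1b and Hist1h2bo, with medians of 2.393 and 0.5838 CPM, lie below that level, so it does not cover them.

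By non-overlap of the 3 exposed and 3 control libraries, 3 of 16 histone genes were higher at 20 mg/mL and 6 days (Hist1h1b, Hist1h1d and Hist1h2an), against 4.07% of all genes. That count belongs to the selecting contrast and is a description. At 10 mg/mL and 6 days Hist1h1d was higher and H2afy lower without overlap, against 2.98% and 3.24% of all genes. For Hist1h1d this too is a description, because the controls are those of the selecting contrast. At 5 mg/mL and 6 days Hist1h2bh was higher, against 4.17% of all genes. At 12 days no histone gene was separated from control. Without overlap, 3.57% of all genes were higher and 4.09% lower at 20 mg/mL. The 10 mg/mL dose had 3.91% higher and 4.55% lower, and the 5 mg/mL dose had 3.86% higher and 3.92% lower.

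For the 16 histone genes at 6 days, 5 mg/mL gave a median log2 fold change of 0.42, 10 mg/mL one of 0.09 and 20 mg/mL one of 0.19. Positive values were found for 13, 12 and 12 of the 16. For 12 days the medians in the same order were -0.04, 0.06 and 0.18, with 7, 9 and 11 genes above 0. Over all genes the medians lay between -0.0076 and 0.0112. The 6-day value at 5 mg/mL was 0.05 without the 8 libraries with the fewest genes, which leaves only replicate 3 of that dose. It was also 0.05 without replicate 2 of that dose. The 6-day value at 20 mg/mL was 0.02 without control replicate 3 and 0.40 without control replicate 1. The 12-day value at 20 mg/mL was 0.01 without the 8 libraries. The other 3 medians turned in sign when a control library was left out. They were -0.04 at 10 mg/mL and 6 days without control replicate 3, -0.07 at 10 mg/mL and 12 days without control replicate 1, and 0.06 at 5 mg/mL and 12 days without control replicate 2.

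**Figure D4:**
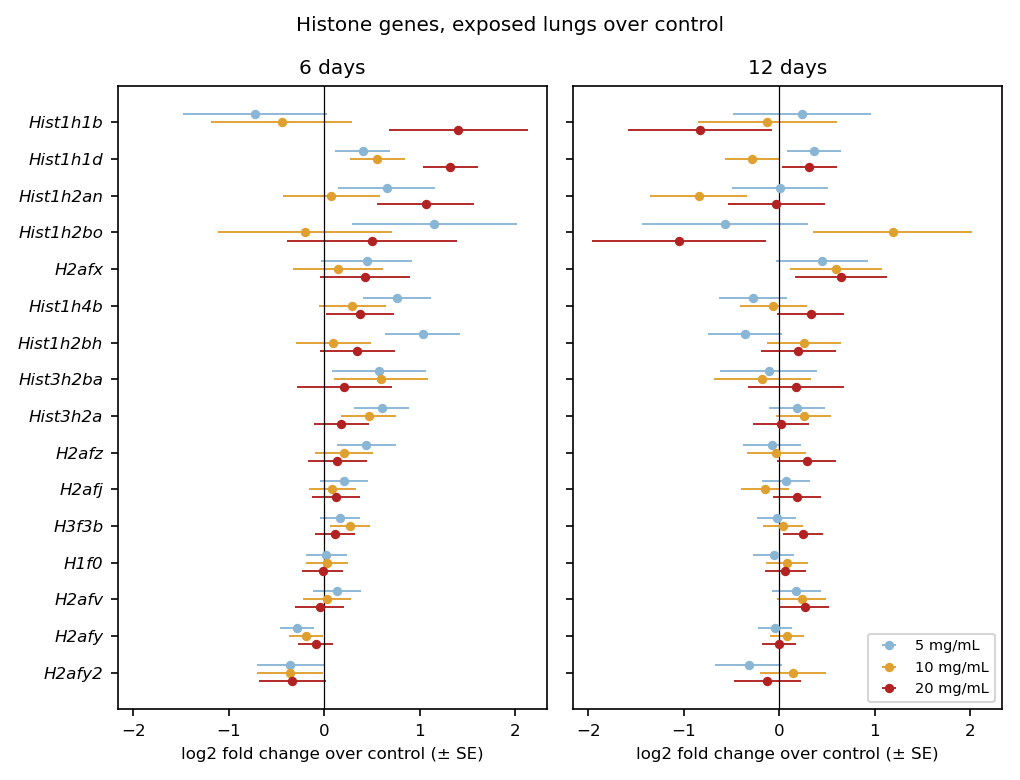
Log2 fold change over control (horizontal axis, ± SE) of the 16 tested histone genes at 5, 10 and 20 mg/mL, at 6 days (left) and 12 days (right). At 6 days Hist1h1b, Hist1h1d and Hist1h2an have the highest values at 20 mg/mL (1.40, 1.32 and 1.06) and Hist1h2bh stands at 1.03 at 5 mg/mL, while at 12 days the same 3 genes at 20 mg/mL have -0.83, 0.32 and -0.03.

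Some histone genes varied together from library to library. H2afz and H3f3b correlated at 0.90 in log2 CPM over the 24 libraries, H2afz and Hist1h4b at 0.87, and H2afj and H2afz at 0.758. Several of these genes followed the number of genes detected when every library was thinned to the smallest one, a measure of library complexity. The 8 libraries with the fewest genes had 11454 to 11751, against 11937 to 12474 in the other 16, and 6 of the 8 were from 6 days, 2 of them at 5 mg/mL and 2 at 10 mg/mL. Hist3h2ba, an H2B gene, had a median of 17.58 CPM in these 8 libraries and 8.585 CPM in the other 16 (r = -0.755 with genes detected). H2afj (r = -0.713), Hist3h2a (r = -0.639) and Hist1h4b (r = -0.601) were also higher where fewer genes were detected. H2afy (r = 0.592), H2afy2 (r = 0.561) and H2afx (r = 0.521) ran the other way. Hist1h1d (r = -0.171), Hist1h2an (r = -0.07) and H1f0 (r = 0.079) had coefficients nearer 0. For deviations from the group means, the coefficient was -0.323 for Hist1h1d, -0.099 for Hist1h2an and -0.0117 for H1f0. These coefficients describe libraries that share depth and composition. Their part in the dose contrasts was not tested beyond the fits without these libraries and a fit with genes detected as a covariate. With that covariate, the log2 fold change of Hist1h1d at 10 mg/mL and 6 days was 0.48, the lowest of its 16 alternative values.

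**Figure D5:**
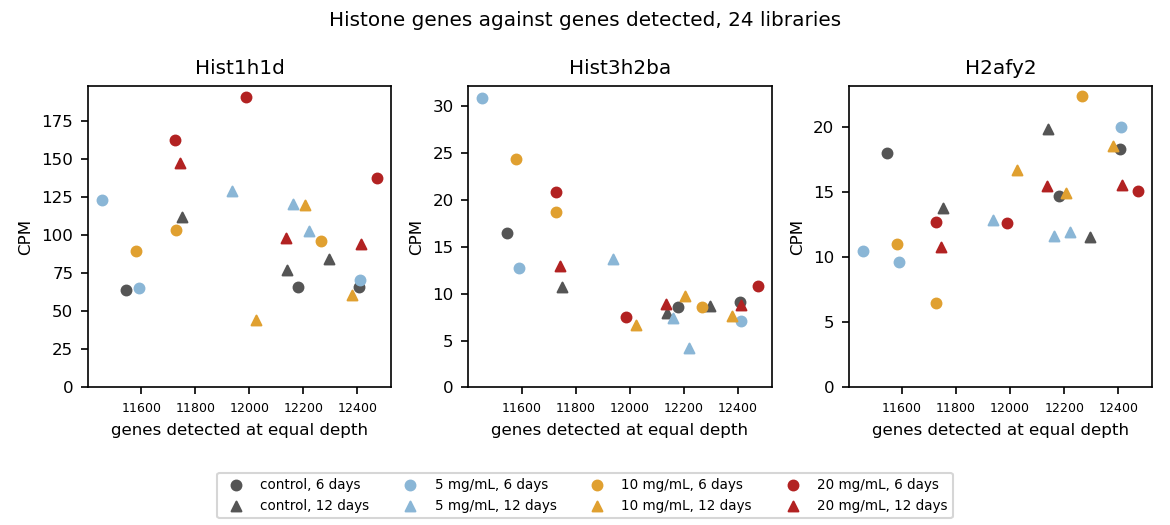
Level in CPM of Hist1h1d, Hist3h2ba and H2afy2 against genes detected at equal depth in 24 libraries, coloured by dose, with circles for 6 days and triangles for 12 days. Hist3h2ba is highest where the fewest genes were detected (r = -0.755), H2afy2 is lowest there (r = 0.561), and Hist1h1d shows a weaker relation (r = -0.171).

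Histone synthesis is tied to DNA replication, so genes of both were set beside the histone genes. Of the 24 tested genes for histone mRNA processing and histone supply, 0 passed an adjusted p of 0.05 in any contrast, and at 20 mg/mL and 6 days 16 were higher and 8 lower with a median log2 fold change of 0.11. Slbp, which binds the stem-loop of histone mRNAs, had 0.27 (SE 0.355). Npat, which drives histone gene transcription, had -0.10 (SE 0.187), and the histone chaperone Nasp had 0.35 (SE 0.309). Of the 35 tested S-phase and replication genes, none passed either, and 17 were higher and 18 lower at 20 mg/mL and 6 days with a median of -0.0082. At 12 days and 20 mg/mL, 22 were higher and 13 lower, with a median of 0.08. Over 24 libraries Hist1h1d correlated at -0.0619 with the mean of the S-phase genes and at 0.235 with that of the proliferation markers.

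Summed levels of some, but not most, cell-type marker lists did not overlap control at 20 mg/mL and 6 days, the group with the highest mean Hist1h1d. All 8 proliferation markers were detected. Mki67, Top2a and Ccna2 are in this list and in the S-phase list too, so the lists are not independent. At 20 mg/mL and 6 days 7 of them were higher and 1 lower than in control lungs, with a median log2 fold change of 0.66 and 0 past the adjusted threshold. Mki67, a marker of cycling cells, had 0.65 (SE 0.3), and Top2a, a topoisomerase of dividing cells, had 0.97 (SE 0.433). The summed level of all 8 was 90.13 to 260.6 CPM at 20 mg/mL, against 92.71 to 134.9 CPM in control lungs, with overlap. The library at 260.6 CPM, replicate 3, had the lowest Hist1h1d of that dose and day, 137.3 CPM. The macrophage list had 2 of 5 genes with reads and Marco at 0, and it summed to 200.9 to 236.5 CPM at 20 mg/mL against 127.5 to 192.5 CPM in control lungs. The 5 T and NK cell markers summed to 73.34 to 108.1 CPM at 20 mg/mL, against 47.93 to 68.24 CPM in control lungs. The alveolar type II genes summed to 22710 to 28010 CPM at 20 mg/mL and 17470 to 22540 CPM in control lungs, and the 3 B cell genes in the files summed to 20.9 to 23.79 CPM at 20 mg/mL and 26.79 to 36.68 CPM in control lungs. None of these 4 ranges overlapped between the groups, which is a description of 3 libraries a side and was not tested. At 5 and 10 mg/mL and 6 days all 4 lists overlapped the controls. Single libraries there were also high, with up to 210.4 CPM for the macrophage list at 5 mg/mL and 103 CPM for T and NK markers at 10 mg/mL. For alveolar type II genes the lowest library at 20 mg/mL, 22710 CPM, was close to the highest control, 22540 CPM. The lists for alveolar type I, endothelium, club and goblet, neutrophil, red blood cell and heart muscle all overlapped. Alveolar type I genes, for example, summed to 3682 to 8059 CPM at 20 mg/mL and 4318 to 7110 CPM in control lungs. The part of any marker list in the level of Hist1h1d was not tested.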

How the data were processed

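Expression was measured in 24 rat lung samples in 8 groups of 3. The authors deposited a table of raw counts for each sample, by gene symbol. Per the submitters' processing notes, Bowtie2, bedtools and build rn6 were used; versions, annotation, multiple-match and strand settings: not given in the sources used here. Per the labels, Trizol RNA went into QuantSeq libraries.

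The 167 lines that repeat a symbol (0.982% of counts) were left out. Counts were filtered by filterByExpr, leaving 11426 genes, scaled by TMM (factors 0.805 to 1.12) and fitted with edgeR 4.0.16 in R 4.3.3, quasi-likelihood, in 1 model of 8 group means with 16 residual degrees of freedom. Tests were two-sided, with Benjamini-Hochberg adjustment over all genes and a threshold of 0.05. CPM is given after TMM scaling, and intervals are at 95%. DESeq2 1.42.0 and limma 3.58.1 were alternatives, beside other scaling, no filter, sample subsets, repeated symbols summed, and each library left out. The fit was tested on simulated data. Named genes were the linker histones, the variants, for each dose the 2 smallest p in each direction, and the genes most like Hist1h1d; Hist3h2ba and Hist3h2a were also named after their values were seen. Members and lists were chosen with earlier results of these data known.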

Additional observations from a re-analysis of the deposited data

How the results depend on the processing

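There were 188 alternative values for the tested results of Hist1h1d and the counts of called histone genes. Of these, 186 were unchanged in direction or count, and 2 values of Hist1h1d turned in sign. No histone gene was called in these results or in their alternatives. A count of 0 has no direction, so the share of 186 says little about how steady the fold changes were. Values for other genes, and the set medians, are not in this share. With each library left out, the log2 fold change of Hist1h1d between 10 and 5 mg/mL at 6 days ranged from -0.0104 to 0.495, and its slope at 12 days from -0.00381 to 0.0155. The number of genes called among all genes, 0 in every contrast, changed under other settings. At 20 mg/mL and 6 days it was 1 with RLE size factors, 1 with no filter, 3 with DESeq2 (1 of them Hist1h1d, which was selected on this contrast), 2 with limma voom, 3 without the 8 libraries with the fewest genes, and 1 with genes detected as a covariate. At 10 mg/mL and 6 days limma voom called 5. At 5 mg/mL and 6 days DESeq2 called 2, and with each library left out the count ranged from 0 to 2. At 20 mg/mL and 12 days DESeq2 called 4, limma voom 2 and the fit of only the groups compared 1. At 10 mg/mL and 12 days DESeq2 called 1, the fit of only the groups compared 2, and the fit without the 8 libraries 1. At 5 mg/mL and 12 days DESeq2 called 1. For the slope at 12 days DESeq2 called 11, limma voom 3, the fit of only the groups compared 1, and the fit without the 8 libraries 1. The cause of these differences was not tested.

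Same-numbered libraries of a day correlated at -0.184 to 0.59 in their deviations from the group means, with 14 of 36 pairs above 0.1 and a median of 0.0629. Differently numbered libraries had 16 of 72 pairs above 0.1 and a median of -0.0667. Not every same-numbered pair was above 0.1 and the labels give no shared source, so the numbers were not taken to pair the samples. A weak shared source could fail a rule that asks this of every pair, so pairing is not excluded. At 6 days, however, the replicate 3 libraries all had many detected genes (12179 to 12474), and the 6 few-gene libraries were all numbered 1 or 2. The link between number and complexity is a hint from the data, not from the design. Each library's correlations with the other groups of its day were averaged by replicate number. For 13 of the 24 libraries their own number had the highest mean, with 3 numbers to choose from. With the replicate block, 1 gene was called at 20 mg/mL and 6 days and 0 in every other contrast, and no histone gene was called. Depth limits the low genes most: Hist1h1b rests on 420 reads, and 17 histone genes had too few to test. With 3 libraries a group, a simulated 2-fold change was recovered for 32.3% of genes in the 12-day 20 mg/mL contrast. Only genes above a set mean level were changed there, and Hist1h1b lies below it, so this share does not cover such low genes.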
